A study of Mus musculus with 6 samples.

Results

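The genes described here are 9 genes of sterol sensing and sterol export: the liver X receptors Nr1h3 (LXRα) and Nr1h2 (LXRβ), the transporters Abca1, Abcg1 and Abcg4, the lipoprotein receptor Scarb1, the apolipoproteins Apoe and Apod, and the oxysterol-forming enzyme Ch25h. They were chosen by gene name from the 38776 genes kept from the count table, of which 24541 had a count in any library. All 9 passed the filter on low counts and entered the test of 16168 genes. RNA was sequenced from 661W cells, a mouse line made from a retinal tumor of an animal expressing a viral T antigen. The serum-fed cells were grown for 48 h in high glucose DMEM with 10% fetal calf serum and then for 72 h in fresh medium of the same kind. The serum-starved cells had the same first 48 h and then 72 h in high glucose DMEM with 0% serum. Both carry the same T antigen, and no gene was edited in either. Cells of passages 24, 26 and 27 each gave 1 fed and 1 starved library, so n = 3 per condition. The line is described as cone-derived. Of 12 cone markers, Arr3 and Rxrg had no count in any library and 5 passed the filter on low counts. Those 5 were Thrb (640 counts over all libraries), Gnat2 (480), Opn1sw (187), Gngt2 (106) and Cngb3 (47). The 12 markers summed to between 2.38 and 4.29 CPM (counts per 1000000 counts of the library) in fed and between 2.84 and 3.41 CPM in starved cells.

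Liver X receptors are nuclear receptors that bind DNA with a retinoid X receptor as partner and are activated by oxysterols, oxidized forms of cholesterol. Their known targets in mouse include Abca1 and Abcg1, which move cholesterol out of cells onto lipid-poor apolipoprotein and onto high density lipoprotein (HDL), and Apoe, a main carrier of cholesterol between cells of the brain and retina. When sterol is scarce, a separate system built on the SREBP transcription factors raises genes of sterol synthesis and of lipoprotein uptake. Serum contains lipoproteins, which carry cholesterol.

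Libraries held between 71970076 and 87178722 counts, and the 9 genes took between 0.0213% and 0.0371% of them. Levels in CPM are not scaled by length. Where a gene has 0 counts, counting error alone permits up to 3, which is between 0.0344 and 0.0417 CPM. Fold changes compare serum-starved with serum-fed cells on a log2 scale, from edgeR's quasi-likelihood test with the passage as a block, and p was adjusted over all genes tested by the Benjamini-Hochberg method. A gene was called at an adjusted p under 0.05, and calls at the study's level of 0.01 are given beside it. Since RNA was taken from whole cultures, less RNA per cell and fewer cells of a kind cannot be told apart.

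Of the 9 genes, Apod and Apoe rose in starved cells and none was called lower, against 3.48% of all tested genes called higher, 1.6% called lower and 5.07% called in either direction. At the level of 0.01 Apod was called higher, against 0.73% of all genes called higher, 0.118% called lower and 0.847% called in either direction. In CPM, the 3 starved libraries were above all 3 fed libraries for Apoe, Apod, Scarb1 and Ch25h, 4 of the 9, a pattern that 7.94% of all genes showed. They were below all fed libraries for Abcg1, as were 4.89% of all genes. For Nr1h2, Nr1h3, Abca1 and Abcg4 the groups overlapped. The median log2 fold change of the 9 genes was 0.12, beside −0.001 for all genes tested. Without adjustment, 4 genes were higher and 1 was lower at a p under 0.05. The share of all genes at that unadjusted level was not determined, so these counts have nothing to be read against.

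**Figure D1:**
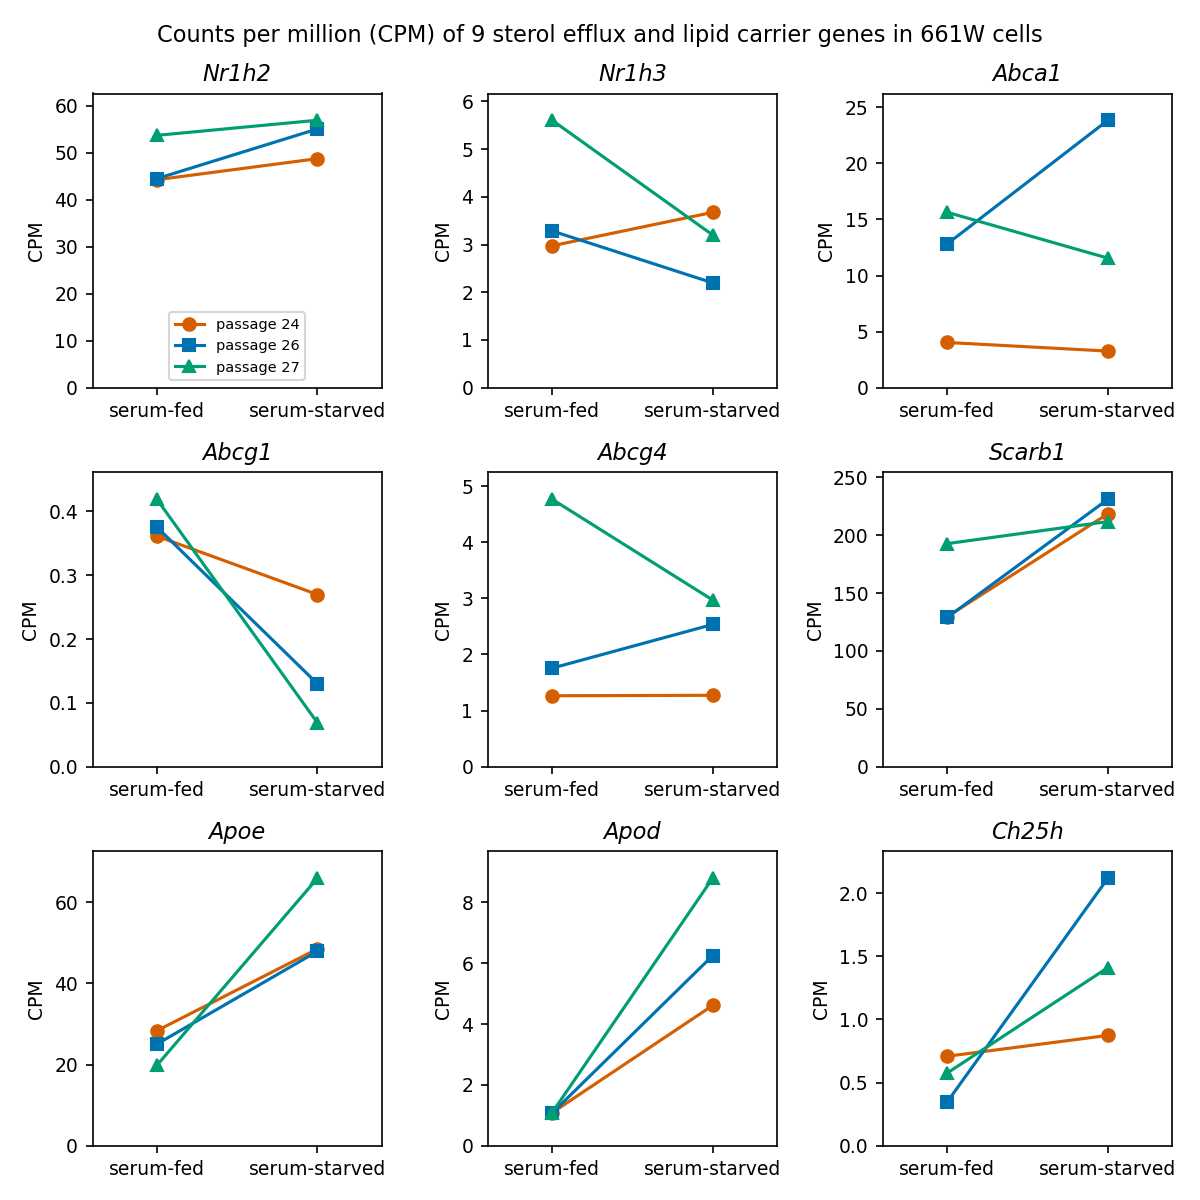
Level in CPM of each of the 9 genes (y axis, from 0, scaled to the gene) in serum-fed and serum-starved 661W cells (x axis), with 1 line for each passage and 1 library at each point. Apoe, Apod, Scarb1 and Ch25h have all 3 starved points above all 3 fed points, Abcg1 has them below, and passage 24 is the lowest line for Abca1 and Abcg4.

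Nr1h2, on chromosome 7 (GRCm38, 44549616 to 44553951, minus strand), encodes LXRβ, the more widely expressed of the receptor pair. It had 3188, 3321 and 4104 counts in fed cells of passages 24, 26 and 27, and 3797, 4240 and 4966 in starved cells, or 44.3, 44.5 and 53.7 CPM against 48.8, 55.1 and 57.0 CPM. Each passage had the higher level in its starved library, but the groups overlapped. The log2 fold change was 0.12 (SE 0.12, adjusted p = 0.590), with a 95% interval of −0.16 to 0.40, which is a fold of 0.894 to 1.32.

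Nr1h3, on chromosome 2 (91184061 to 91202834, minus strand), encodes LXRα, best known from liver, fat tissue and macrophages. It had 214, 245 and 428 counts in fed cells and 286, 169 and 279 in starved cells, or 2.97, 3.28 and 5.61 CPM against 3.67, 2.20 and 3.20 CPM. The level was higher in the starved library of passage 24 and lower in those of passages 26 and 27. The log2 fold change was −0.42 (SE 0.29, adjusted p = 0.415). Of its exons, 1.35% of the bases are shared with the processed transcript Gm13783 on the same strand. Scaled by the length of the merged exons, Nr1h2 stood above Nr1h3 in every library, by a factor between 7.19 and 18.8. LXRβ RNA was at least 87.8% of the summed length-scaled receptor RNA of each library.

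Partners and coregulators of the receptors were called at about the share of all genes. Of 20 genes listed, 19 were tested, 0 were called higher and 1 was called lower (5.26%, beside 5.07% of all genes in either direction), with a median log2 fold change of −0.08. Pparg, a lipid-sensing nuclear receptor that shares the same partners, fell from 10.5 ± 2.3 CPM in fed to 5.86 ± 0.34 CPM in starved cells (SD, n = 3), a log2 fold change of −0.87 with an adjusted p of 0.0497 by edgeR. That call was kept in 4 of 11 alternatives and lost in edgeR without the block, with RLE size factors, library totals or 10 counts in every library, and without passage 24, 26 or 27 (adjusted p = 0.107, 0.189 and 0.103). Tbl1x, a part of the corepressor complex, had a log2 value of −0.39 (adjusted p = 0.0946). Its relative Tbl1xr1 had 0.44 (adjusted p = 0.174), and the coactivator Ppargc1a had 1.099 (adjusted p = 0.192). Rxrg, the retinoid X receptor of cones, had no count in any library.

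Abca1, on chromosome 4 (53030787 to 53159895, minus strand), encodes the transporter that loads cholesterol and phospholipid onto lipid-poor apolipoprotein. It had 290, 957 and 1194 counts in fed cells of passages 24, 26 and 27, and 254, 1835 and 1007 in starved cells. These are 4.03, 12.8 and 15.6 CPM against 3.26, 23.9 and 11.6 CPM. The starved library was lower than its fed partner in passages 24 and 27 and higher in passage 26, and each of these differences was larger than counting error. Such differences of opposite sign beyond counting error were seen in 21.9% of all tested genes. Within passages the log2 difference was −0.30, 0.89 and −0.44. The fitted log2 fold change was −0.003 (SE 0.27, adjusted p = 0.996), with a 95% interval of −0.64 to 0.63.

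Abca1 also differed between passages. Both libraries of passage 24 were below the other 4, with 3.26 and 4.03 CPM against 11.6 to 23.9 CPM. That pattern was seen in 22.4% of all genes. The contrast of passage 24 with the mean of passages 26 and 27, in the same edgeR fit, gave a log2 value of −2.02 (SE 0.32, adjusted p = 0.0095). Of the 9 genes, 1 was called lower in passage 24 and 0 were called higher, against 10.2% and 11.1% of all genes tested, or 21.3% in either direction. At the level of 0.01 the shares of all genes were 1.41% and 2.12%, or 3.53% in either direction, and Abca1 passed it. Both passage 24 libraries were above the other 4 for 0 of the 9 genes and for 14.9% of all genes. The named genes of the related lists went both ways. Clu (log2 −2.51, adjusted p = 0.0067), Abca9 (−2.01, adjusted p = 0.0175), Cyp7b1 (−2.32, adjusted p = 0.0271), Mylip (−1.48, adjusted p = 0.0158), Cyp39a1 (−0.70, adjusted p = 0.0424) and Tbl1xr1 (−0.69, adjusted p = 0.0410) were lower in passage 24. Apol8 (1.93, adjusted p = 0.0071), Lrp8 (0.99, adjusted p = 0.0096), Tomm40 (0.99, adjusted p = 0.0137) and Cav1 (1.01, adjusted p = 0.0167) were higher. Each passage was a separate experiment, so passage number and experiment cannot be told apart.

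The promoter of Abca1 is shown for its known LXR site in mouse and human. That site is built as a direct repeat of AGGTCA with 4 bases between the copies, but its letters need not match exactly. RefSeq promoter windows (GRCm38.p6) matched 6 of the 9 genes, Abca1, Apoe, Apod, Nr1h2, Nr1h3 and Ch25h. With at most 2 mismatches in the fixed bases and on both strands, 0 of these 6 held the repeat in their 300 bases, beside 3.47% of 27025 genes. With at most 3 mismatches Abca1 held it, beside 24.5% of all genes, so the letters alone cannot tell a receptor site from other matches. Whether the stretch in Abca1 is the known site was not tested, and the lack of a closer match does not mean that the site is absent. Shorter letters were looked for in the 250 bases before each start, on both strands, and were chosen with the expression values known. AGGTCA alone, the letters of each copy in the exact repeat, was found in 0 of the 6 genes and in 15.8% of all genes. TATAAA, the core of the TATA box, was found in 3 of the 6 genes (Abca1, Apoe and Ch25h) and in 14.3% of all genes. The sterol regulatory element TCACNCCAC was found in 0 of the 6 genes and in 1.22% of all genes, and CCAAT in 0 of the 6 and in 37.5%. The sequence, from 250 bases before the start of transcription to the base before it, has in capitals the direct repeat with 3 mismatches, which begins 67 bases before the start, and TATAAA, which begins 29 bases before it.
Abca1, chr4:53159896-53160145, minus strand: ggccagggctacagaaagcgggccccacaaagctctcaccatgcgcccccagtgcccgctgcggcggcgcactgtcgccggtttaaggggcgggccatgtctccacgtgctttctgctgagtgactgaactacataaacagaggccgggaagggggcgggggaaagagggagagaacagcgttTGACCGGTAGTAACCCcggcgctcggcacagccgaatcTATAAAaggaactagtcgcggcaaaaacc

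Abcg1, on chromosome 17 (31057675 to 31117988, plus strand), encodes a transporter that passes cholesterol to HDL. It was close to the floor of detection, with 26, 28 and 32 counts in fed cells and 21, 10 and 6 in starved cells. The levels were 0.361, 0.375 and 0.419 CPM against 0.270, 0.130 and 0.069 CPM, lower in the starved library of all 3 passages. Within passage 24 the difference of 26 and 21 counts was within counting error (log2 −0.42, 95% interval −1.25 to 0.41), and in passages 26 and 27 it was log2 −1.53 and −2.61. The fitted log2 fold change was −1.47 (SE 0.49) and was not called (adjusted p = 0.125).

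Abcg4, on chromosome 9 (44273188 to 44288615, minus strand), is a close relative of Abcg1 found mainly in brain and retina. It had 91, 131 and 364 counts in fed cells and 99, 195 and 259 in starved cells, or 1.26, 1.76 and 4.77 CPM against 1.27, 2.53 and 2.97 CPM. The starved library was higher in passage 26, lower in passage 27 and level with the fed one in passage 24. The fitted log2 fold change was −0.11 (SE 0.31, adjusted p = 0.858). Both passage 24 libraries were below the other 4, as for 22.4% of all genes, with a log2 value of −1.09 (SE 0.34) that was not called (adjusted p = 0.056). Under DESeq2 with the same block it was called (adjusted p = 0.015). Per kilobase, Abcg4 was above Abcg1 in every library, by a factor of 4.90 to 60.5.

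The other transporters of the ABCA and ABCG families showed 1 call. Of 15 genes, 12 were tested, 1 was called higher (8.33%) and 0 lower, beside 3.48% and 1.6% of all genes. The list had a median of 0.55 on the log2 scale. Abca9 rose from 1.38 ± 1.15 CPM to 9.004 ± 5.85 CPM (SD, n = 3, log2 2.62, adjusted p = 0.0123 by edgeR). Its levels in passages 24, 26 and 27 were 0.528, 0.925 and 2.68 CPM in fed and 2.25, 12.4 and 12.4 CPM in starved cells. The call was kept in 10 of 11 alternatives and lost without the block in edgeR (adjusted p = 0.460). Abca2, a transporter best known from oligodendrocytes, had a log2 value of 0.58 (adjusted p = 0.0674). Abca13 had −1.86 (adjusted p = 0.0579) and Abca8a 2.16 (adjusted p = 0.109), both close to the floor of detection. Over all libraries Abca13 had 80 counts and Abca8a 54. In fed cells of passages 24, 26 and 27, Abca8a had 0.014, 0.094 and 0.013 CPM. The median of the list includes these sparse genes.

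**Figure D2:**
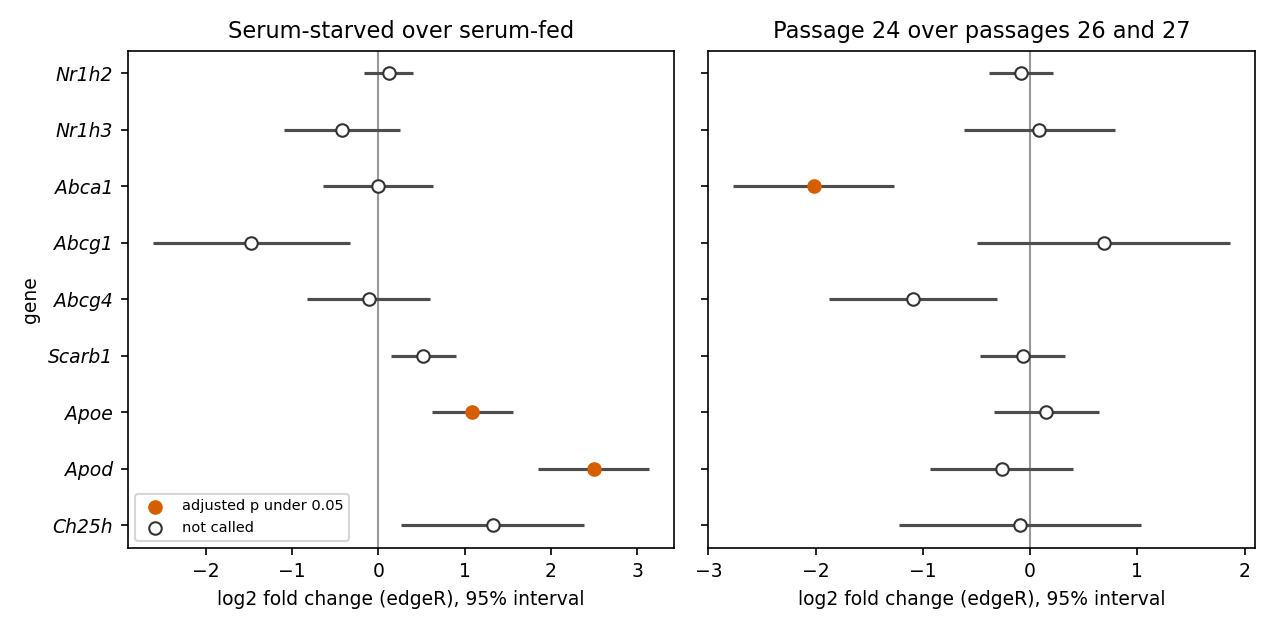
Log2 fold changes from edgeR (x axis) with 95% intervals for the 9 genes (y axis), for serum-starved over serum-fed cells on the left and for passage 24 over the mean of passages 26 and 27 on the right. Filled points passed an adjusted p under 0.05, which holds for Apoe (1.09) and Apod (2.49) on the left and for Abca1 (−2.02) on the right.

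Apod, on chromosome 16 (31296192 to 31314808, minus strand), encodes apolipoprotein D, a small secreted lipocalin that binds arachidonic acid and sterols. It had 78, 80 and 83 counts in fed cells of passages 24, 26 and 27, and 359, 481 and 767 in starved cells. The fed levels were 1.08, 1.07 and 1.09 CPM and the starved levels 4.61, 6.25 and 8.80 CPM. The fed libraries had nearly the same level (SD 0.0076 CPM), and every starved library was above them. The log2 fold change was 2.49 (SE 0.28, adjusted p = 0.0057), a fold of 5.63 with a 95% interval of 3.60 to 8.82. Within passages the fold was 4.26, 5.83 and 8.09. Without passage 27 the adjusted p was 0.0272, past 0.05 but not past 0.01. Without the block in edgeR it was 0.0762.

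Apoe, on chromosome 7 (19696109 to 19699188, minus strand), encodes apolipoprotein E, the ligand through which lipoproteins of the nervous system bind their receptors on cells. It had 2040, 1868 and 1513 counts in fed cells and 3776, 3687 and 5749 in starved cells, or 28.3, 25.0 and 19.8 CPM against 48.5, 47.9 and 65.9 CPM. All starved libraries were above all fed ones, and passage 27 held both the lowest fed and the highest starved level. The log2 fold change was 1.09 (SE 0.20, adjusted p = 0.0313), a fold of 2.13 with a 95% interval of 1.54 to 2.95. Within passages the fold was 1.71, 1.91 and 3.33. Without passage 27 the log2 value was 0.80 and the call was lost (adjusted p = 0.0831), as it was without the block in edgeR (adjusted p = 0.265).

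The sequences before the starts of both genes are shown because these were the 2 called genes, and they differ in base composition, with 57.2% G and C before Apoe and 36.4% before Apod. None of the letters named above was found in either sequence, so neither has capitals. The TATAAA counted for Apoe lies in another of its 3 RefSeq windows.
Apoe, chr7:19699189-19699438, minus strand: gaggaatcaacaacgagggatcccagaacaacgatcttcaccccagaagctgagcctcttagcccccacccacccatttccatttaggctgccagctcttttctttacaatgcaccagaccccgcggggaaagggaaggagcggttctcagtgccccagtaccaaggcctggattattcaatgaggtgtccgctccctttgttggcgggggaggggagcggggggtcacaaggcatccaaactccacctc
Apod, chr16:31314809-31315058, minus strand: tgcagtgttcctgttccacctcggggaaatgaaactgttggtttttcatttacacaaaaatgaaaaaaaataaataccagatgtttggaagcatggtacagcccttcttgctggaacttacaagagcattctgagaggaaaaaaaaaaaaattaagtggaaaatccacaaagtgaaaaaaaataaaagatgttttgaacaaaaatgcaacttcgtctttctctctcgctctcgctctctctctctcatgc

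The neighbours of Apoe on chromosome 7 were not called. Of 8 listed, 7 were in the table, 4 were tested and 0 passed in either direction, and their median log2 fold change was −0.02. Tomm40, an import channel of the mitochondrial outer membrane, had −0.59 (adjusted p = 0.103), the adhesion receptor Bcam 0.30 (adjusted p = 0.405), Clptm1 0.13 (adjusted p = 0.525) and the transcription factor Relb −0.17 (adjusted p = 0.713). Apoc1 and Apoc4, apolipoproteins of the same cluster, had no count in any library.

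Among 23 other apolipoproteins and lipid carriers, 16 were tested, 2 rose (12.5%) and 0 fell, beside 3.48% and 1.6% of all genes. The median log2 fold change was −0.05. Ptgds, a lipocalin like Apod that makes prostaglandin D and carries lipophilic molecules, had 12.2 ± 2.5 CPM in fed and 53.9 ± 13.6 CPM in starved cells (SD, n = 3; log2 2.08, adjusted p = 0.0043 by edgeR). Clu, the apolipoprotein clusterin, had 9.03 ± 9.90 CPM and 22.5 ± 17.0 CPM (log2 1.41, adjusted p = 0.0441), a call that was lost without passage 26 or 27 (adjusted p = 0.0514 and 0.077) and without the block in edgeR and DESeq2. Apob, the structural protein of low density lipoprotein, had a log2 value of −0.87 (adjusted p = 0.138), and Apol8 had −0.71 (adjusted p = 0.175).

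Scarb1, on chromosome 5 (125277087 to 125341094, minus strand), encodes the HDL receptor SR-BI, which exchanges cholesterol and cholesteryl ester with HDL in both directions. It had 9339, 9627 and 14724 counts in fed cells and 17015, 17785 and 18471 in starved cells, the most of any of the 9 genes. The levels were 130, 129 and 193 CPM against 219, 231 and 212 CPM. The groups did not overlap, with a within-passage fold of 1.69 and 1.79 in passages 24 and 26 but 1.099 in passage 27, whose fed level was the highest of the fed libraries. The log2 fold change was 0.52 (SE 0.16) and was not called (adjusted p = 0.104), with a 95% interval of 0.15 to 0.89. It passed under DESeq2 with the block (adjusted p = 0.047) and with no filter on low counts (adjusted p = 0.0477).

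Of 21 other lipoprotein and scavenger receptors and their partners, 18 were tested, with a median log2 fold change of 0.17. Of the 18, 3 rose (16.7%) and 0 fell, beside 3.48% and 1.6% of all genes. Sort1, a sorting receptor of the secretory pathway, rose from 35.7 ± 16.2 CPM to 114 ± 57 CPM (SD, n = 3; log2 1.54, adjusted p = 0.0288 by edgeR), a call that was lost without passage 27 (adjusted p = 0.0955). The call of Sort1 was also lost without the block in edgeR (adjusted p = 0.452). Lrp8, a receptor for Apoe and reelin in the brain, had a log2 value of 0.56 that was not called (adjusted p = 0.0829).

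Ch25h, a gene of 1 exon on chromosome 19 (34473778 to 34475164, minus strand), encodes cholesterol 25-hydroxylase, which makes an oxysterol that both activates LXR and blocks SREBP processing. It had 51, 26 and 44 counts in fed cells and 68, 163 and 123 in starved cells, or 0.709, 0.349 and 0.576 CPM against 0.874, 2.12 and 1.41 CPM. The groups did not overlap, but the passages differed widely, with a fold of 1.23 in passage 24, where the interval of the counts included 1, and of 6.08 and 2.45 in passages 26 and 27. The log2 fold change was 1.32 (SE 0.46) and was not called (adjusted p = 0.134), except with no filter on low counts (adjusted p = 0.0493). Of its exon, 11.5% of the bases overlap Gm26902 on the opposite strand, and the counting used strand.

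Of 13 genes of oxysterol and bile acid enzymes, Ch25h included, 10 were tested, with a median log2 fold change of 0.48. Of the 10, 1 rose (10%) and 0 fell, beside 3.48% and 1.6% of all genes. Cyp39a1, an oxysterol hydroxylase, rose from 14.1 ± 4.7 CPM to 28.3 ± 10.3 CPM (SD, n = 3; log2 0.92, adjusted p = 0.0356 by edgeR). The call was lost without passage 26 or 27 (adjusted p = 0.11 and 0.115) and without the block in edgeR and DESeq2, and kept in 7 of 11 alternatives. Cyp7b1, which breaks down 25-hydroxycholesterol and other oxysterols, had 0.306 ± 0.160 CPM and 1.61 ± 1.37 CPM (log2 2.01) and was not called (adjusted p = 0.053). Hsd11b1 had a log2 value of 1.27 (adjusted p = 0.131).

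Genes that are LXR targets in other mouse tissues were called in both directions. Of 18 listed, 12 were tested. Of these, 3 rose (25%) and 1 fell (8.33%), beside 3.48% and 1.6% of all genes, with a median of 0.62 on the log2 scale. Apoc1 and Cyp7a1 were among those with no count in any library. Pltp, the phospholipid transfer protein, rose from 50.6 ± 11.5 CPM to 97.9 ± 10.3 CPM (SD, n = 3; log2 0.91, adjusted p = 0.0105 by edgeR). Lpl, the lipase of lipoprotein triglyceride, rose from 66.2 ± 14.0 CPM to 151 ± 19 CPM (log2 1.14, adjusted p = 0.0126). Mylip, a ubiquitin ligase of lipoprotein uptake, rose from 9.94 ± 7.36 CPM to 20.0 ± 8.3 CPM (log2 1.16, adjusted p = 0.0491). Vegfa, the vascular growth factor, fell from 76.2 ± 24.5 CPM to 44.3 ± 7.3 CPM (log2 −0.79, adjusted p = 0.0441). The call of Vegfa was kept in 6 of 11 alternatives and lost without the block in edgeR and DESeq2, with library totals, and without passage 26 or 27 (adjusted p = 0.124 and 0.170). The call of Mylip was kept in 4 of 11 and lost without passage 24 or 26 (adjusted p = 0.0932 and 0.111), without the block in edgeR and DESeq2, in limma-voom, with RLE size factors and with 10 counts in every library. That of Lpl was lost without passage 27 (adjusted p = 0.0525) and without the block in edgeR (adjusted p = 0.240). That of Pltp was also lost without the block in edgeR (adjusted p = 0.266). Abca1 and Abcg1, which lead most lists of LXR targets, were not called, with the values given above. Several of these targets are also regulated by other factors, and no LXR ligand or knockout was part of the design.

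Genes of sterol synthesis and of the SREBP system were nearly all higher in starved cells. Of 26 listed, 25 were in the table and tested, with a median log2 fold change of 1.47. Of the 25, 21 rose (84%) and 0 fell, beside 3.48% and 1.6% of all genes. At the level of 0.01, 15 rose, beside 0.73% of all genes. Hmgcs1, which makes the precursor of mevalonate, rose from 127 ± 45 CPM to 639 ± 90 CPM (SD, n = 3; log2 2.32, adjusted p = 0.0031 by edgeR). Insig1, the sterol-dependent anchor of the SREBP complex, rose from 70.0 ± 10.7 CPM to 339 ± 54 CPM (log2 2.22, adjusted p = 0.0031). Sqle and Tm7sf2, enzymes of the steps from squalene to cholesterol, had log2 values of 1.56 and 2.53 (adjusted p = 0.0031 for each). The promoter of Hmgcs1 is shown for contrast with those above, with AGGTCA (on the opposite strand), CCAAT (on the opposite strand), the sterol regulatory element and a direct repeat with 3 mismatches in capitals. CCAAT was found in 17 of the 21 genes of this list with a window (81.0%), beside 37.5% of all genes and 0 of the 6 described above. The sterol regulatory element was found in 1 of the 21, Hmgcs1 itself (4.76%), beside 1.22% of all genes. AGGTCA was found in 3 of the 21 (14.3%), beside 15.8% of all genes, so Hmgcs1 does not stand for the list in these letters.
Hmgcs1, chr13:119690101-119690350, plus strand: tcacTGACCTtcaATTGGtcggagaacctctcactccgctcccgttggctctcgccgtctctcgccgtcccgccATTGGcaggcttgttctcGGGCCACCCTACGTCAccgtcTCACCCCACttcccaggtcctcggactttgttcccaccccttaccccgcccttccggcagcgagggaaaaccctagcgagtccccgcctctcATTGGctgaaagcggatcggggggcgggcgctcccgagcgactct

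Transport and storage of sterol inside the cell was described by 23 genes, all tested, with a median log2 fold change of 0.07. Of the 23, 2 rose (8.70%) and 0 fell, beside 3.48% and 1.6% of all genes. Stard4, a soluble sterol carrier, rose from 102 ± 26 CPM to 244 ± 43 CPM (SD, n = 3; log2 1.22, adjusted p = 0.0079 by edgeR). Npc2, which hands cholesterol out of the lysosome, rose from 314 ± 52 CPM to 536 ± 41 CPM (log2 0.72, adjusted p = 0.0389), a call that was lost without passage 26 or 27 (adjusted p = 0.121 and 0.129) and without the block in edgeR and DESeq2. The hydrolase Nceh1 had a log2 value of 0.54 (adjusted p = 0.0658) and the caveolar protein Cav1 −0.77 (adjusted p = 0.0689), and neither was called.

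**Figure D3:**
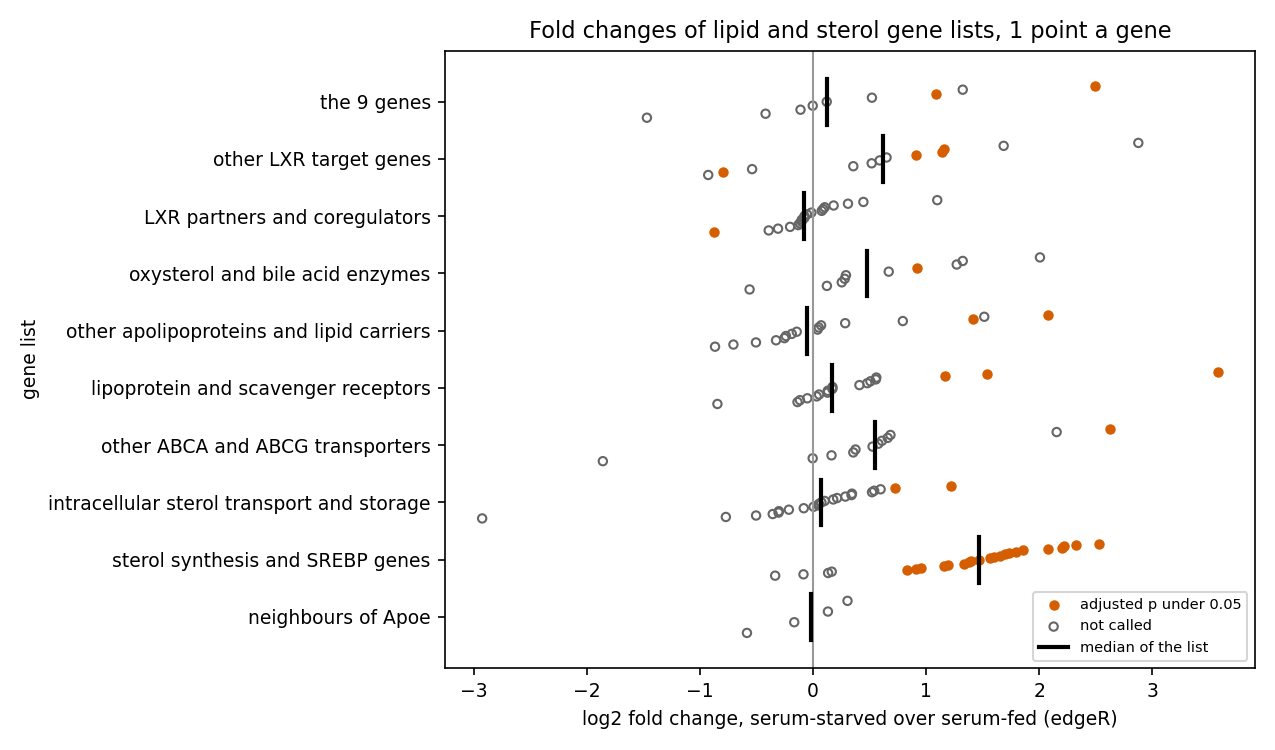
Log2 fold change of serum-starved over serum-fed cells from edgeR (x axis) for every tested gene of each list (y axis), with 1 point a gene, filled where the adjusted p was under 0.05, and a bar at the median of the list. The list of sterol synthesis genes has 21 of 25 points filled and a median of 1.47, and the 9 genes have 2 filled and a median of 0.12.

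Levels of different genes were compared per kilobase of merged exon (GENCODE M21), which can be longer than the transcript in use. In fed cells the order ran from Scarb1 (17.7 ± 4.3 CPM per kilobase, SD, n = 3), Nr1h2 (14.2 ± 1.6) and Apoe (11.4 ± 2.0) to Nr1h3 (1.57 ± 0.57), Abca1 (1.05 ± 0.58), Abcg4 (0.498 ± 0.364), Apod (0.420 ± 0.003), Ch25h (0.393 ± 0.131) and Abcg1 (0.053 ± 0.004). The ranges of all neighbours in this order overlapped, except Apoe above Nr1h3 and Ch25h above Abcg1. In starved cells Scarb1 (25.9 ± 1.2) and Apoe (25.3 ± 4.8) overlapped at the top, with Nr1h2 (15.99 ± 1.28) below both. Apod (2.54 ± 0.82) came next, in a range that overlapped that of Abca1 (1.24 ± 1.00). The length-scaled ratio of Apoe to Apod was 22.0 to 31.5 in fed libraries and 9.03 to 12.7 in starved ones, without overlap.

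**Figure D4:**
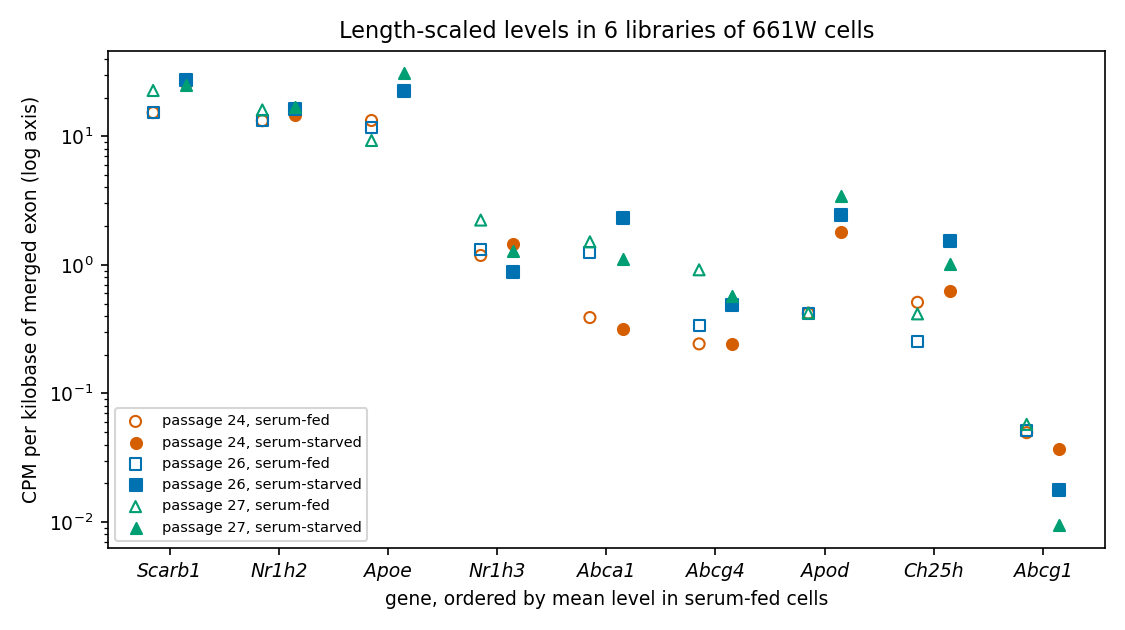
Level of each of the 9 genes (x axis, ordered by the mean in fed cells) in CPM per kilobase of merged exon (y axis, log scale), with open symbols for serum-fed, filled symbols for serum-starved libraries and 1 symbol shape for each passage. Scarb1, Nr1h2 and Apoe form the upper group at 9.27 or more, and Abcg1 lies below all others at 0.057 or less.

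The genes most like each called gene were found by Pearson's correlation of log2 CPM over the 6 libraries, among 16167 genes. They are given as a description, since libraries of a condition share its difference. They were also picked as the highest of 16167 values over 6 libraries, so a high r does not by itself show a link. Apoe was followed most closely by Abhd16a, a lipid hydrolase (r = 0.991), D830050J10Rik (0.991) and 9530052E02Rik (0.987), of which none was called (adjusted p between 0.0717 and 0.136 by edgeR). Apod was followed by Msc, a transcription factor of muscle and lymphoid cells (r = 0.994), Gm6166 (0.994) and Nkain3 (0.993), and all of these rose (adjusted p = 0.0031, 0.0130 and 0.0388).

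Markers of other cell types also moved with starvation. Their calls stand beside 3.48% of all tested genes called higher and 1.6% called lower. Of 9 fibroblast markers 8 were tested and 5 rose, and their sum was 815 to 2583 CPM in fed and 2079 to 6614 CPM in starved cells. Of 8 muscle markers, all tested, 6 rose, with sums of 50.7 to 136 CPM and 41.4 to 616 CPM. Of 10 Müller glia markers, which include Apoe, 9 were tested, 3 rose (Slc1a3, Dkk3 and Apoe) and 1 fell (Sox9). Aqp4 had no count in any library. The sum was 2160 to 4397 CPM in fed and 2056 to 3383 CPM in starved cells. Most of that sum was Vim, which was not called, with a mean of 2936 CPM in fed and 2065 CPM in starved cells. The part of the fibroblast, muscle and Müller glia markers in the change of Apoe and Apod was not tested. Of the genes that define macrophages, cells rich in Apoe, Abca1 and Abcg1, Tyrobp, C1qa and C1qb had no count in any library. Counts over all libraries were 2027 for Cd68, 277 for Cx3cr1, 191 for Aif1, 99 for Csf1r, 75 for Lyz2, 20 for Ptprc and 11 for Itgam. Of 11 macrophage markers 10 were in the table, 5 were tested, 0 rose and 1 fell, which was Cx3cr1. The sum was 2.95 to 17.0 CPM in fed and 2.76 to 5.02 CPM in starved cells. Of 8 hepatocyte markers 2 were tested and 0 were called, Ttr and Serpina1a had no count, and the sum was 1.06 to 1.95 CPM in fed and 0.551 to 1.73 CPM in starved cells. Of 8 markers of retinal pigment epithelium 3 were tested and 0 were called, with sums of 4.74 to 7.46 CPM and 5.50 to 13.1 CPM.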

How the data were processed

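The authors selected polyA RNA, made stranded libraries, sequenced them over 4 lanes (75 bp, single-end), mapped the reads with STAR to GRCm38/mm10, and deposited counts per gene from HTSeq (union mode, reverse strand), with no normalization. Versions of these tools: not given in the sources used here. A second deposited table holds the authors' DESeq2 comparison (base mean, log2 fold change, its error, Wald statistic and p-values) and was not used.

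Of 38803 rows, 27 whose name had become a date were left out (0.223% to 0.301% of counts), and 35556 names matched once in GENCODE M21. The test was edgeR's quasi-likelihood F-test (filterByExpr, TMM factors 0.941 to 1.04, prior degrees of freedom 5.53, biological coefficient of variation 0.200), with condition and passage as terms. The labels call the passages independent experiments, each with a fed and a starved culture. With the mean of each condition removed, log2 CPM (pseudocount 0.1) correlated within passages at 0.682, 0.280 and 0.635, beside at most −0.420, −0.071 and 0.258 with another passage. Mitochondrial genes took 1.49% to 2.04% of counts. Scripts were tested on simulated data.

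Alternatives were edgeR with the block left out, limma-voom, DESeq2 in both designs, scaling by library totals or RLE size factors, no filter, at least 10 counts in every library, leaving out each passage, and 1 or 3 mismatches in the promoter repeat. The text names all 9 genes, up to 4 genes of each list with the smallest p, and for each called gene the 3 most correlated genes. Some genes that this rule names are not reported here. Members and lists were chosen with earlier results of these data known. Versions were R 4.3.3, edgeR 4.0.16, limma 3.58.1, DESeq2 1.42.0, Python 3.11.15, pandas 2.3.3, scipy 1.17.1 and matplotlib 3.10.9.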

Additional observations from a re-analysis of the deposited data

Results flagged for a closer look

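Abca1 moved in opposite directions in different passages. The log2 difference of starved minus fed cells was −0.3044 in passage 24, 0.8946 in passage 26 and −0.4369 in passage 27, each beyond counting error. Abcg4 was higher in the starved library of passage 26 (0.5293) and lower in that of passage 27 (−0.6821), with 0.0084 in passage 24, within counting error. With 1 pair of libraries per passage these differences between passages were not tested. Passages of opposite sign beyond counting error were seen in 2 of the 9 genes, beside 21.9% of all tested genes. The pattern is therefore not particular to these genes.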

How the results depend on the processing

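Depth limits Abcg1 most, with 6 to 32 counts a library, and every call rests on 3 pairs of libraries. Apod was called at 0.05 in 10 of 11 alternatives and Apoe in 9 of 11. Of 98 values of the 9 genes for starved against fed cells, 83 kept their direction and side of the threshold, as did 49 of 53 for the passage contrast. Of 18 mean levels, 17 moved by less than 1 SD under TMM scaling. Without the replicate block, edgeR called 4 genes higher and 0 lower at 0.05, 0 and 0 at 0.01, 0 of the 9 genes at either level, and 3 higher and 0 lower in the other lists, so most named calls of the lists were lost there. DESeq2 with no replicate block called 280 higher and 48 lower at 0.05 and 2 of the 9 genes higher at 0.01.

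For starved against fed cells, edgeR as reported called 562 genes higher and 258 lower at 0.05 (118 and 19 at 0.01), and 33 higher and 2 lower in the other lists. DESeq2 with the block called 1112 and 899 (715 and 455), 2 of the 9 higher at 0.01 and 8 genes of the other lists lower, and 789 of edgeR's 820 calls were among its 2011. With no filter there were 1106 and 705 (577 and 250), 4 of the 9 higher at 0.05 and 2 at 0.01, and 8 lower in the lists. With at least 10 counts in every library, which left Abcg1 out, 11 genes were lower at 0.01 and 1 in the lists, which had 1 lower with RLE size factors and 0 with library totals. Leaving out each replicate gave 271 to 863 higher and 63 to 493 lower at 0.05, 32 to 180 and 3 to 35 at 0.01, 1 to 2 of the 9 higher at 0.05 and 0 to 2 at 0.01, and 0 to 5 lower in the lists.

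For passage 24, the reported 1802 higher and 1648 lower at 0.05 were 342 and 228 at 0.01, which became 1366 and 1422 with DESeq2 and 1088 and 1015 with no filter. Of the 9 genes, 2 were lower at 0.05 with DESeq2, library totals and no filter, and 0 at 0.01 with limma-voom, RLE size factors and 10 counts in every library. The sign of Abca1 in starved cells, near 0, turned to 0.19 without the block in edgeR and 0.19 in DESeq2, 0.092 in limma-voom, 0.053 with library totals, 0.00078 with no filter, 0.00645 with 10 counts in every library, and lay between −0.41 and 0.25 with a replicate left out. Abcg4 lay between −0.39 and 0.22 with a replicate left out, and Nr1h3 in passage 24 turned to −0.00321 with library totals. The promoter repeat matched 1 gene with 3 mismatches.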
